A study of Homo sapiens with 8 samples.

Results

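Ribosome footprints were examined for 35 genes of the integrated stress response and its transcription factor ATF4, taken by symbol from a list and matched without exception among the 20719 gene IDs counted. The cells were of the G401 line, from a rhabdoid tumor of the kidney without SMARCB1, a core subunit of the mSWI/SNF chromatin remodeling complexes. They carried a doxycycline-inducible (Tet-On) SMARCB1 or, as control, GFP, and are called here the SMARCB1 line and the GFP line. Each line was treated with 0.1 μg/ml doxycycline (Dox) or DMSO for 12 h, which gave 4 groups of 2 libraries: SMARCB1 Dox, SMARCB1 DMSO, GFP Dox and GFP DMSO. Several plates were pooled for each condition. Whether a line is 1 clone is not given in the sources used here, so a difference between the lines cannot be told apart from their separate history. The values are counts of RiboLace footprints on annotated coding sequence, given as CPM (the count divided by the library's total on genes and scaled to 1000000). The level of the mRNA and the number of ribosomes on each mRNA cannot be told apart in them, nor can a level in all cells and a level carried by a share of the cells.

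The integrated stress response starts when a stress-sensing kinase phosphorylates the initiation factor eIF2, which slows translation in general while the ATF4 mRNA, through short upstream reading frames, is translated better. ATF4 then pairs with C/EBP family proteins and raises genes of amino acid uptake, amino acid synthesis and transfer RNA charging, together with feedback regulators and, under lasting stress, the cell death factor DDIT3 (CHOP). In tumor cells this program is known for serving amino acid supply and redox balance.

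The DNA element through which ATF4 and C/EBP proteins act at such genes has the core TGATGNAA, which reads TTNCATCA on the other strand. This core was searched on both strands in 300 bases around each start site (250 before, 50 after) in a RefSeq promoter table of build GRCh38.p14, which held 28 of the 35 members. A match was found in 4 of them (14.3%), ASNS, CHAC1, SLC3A2 and ATF3, against 1003 of all 27305 promoters in the table (3.67%). The promoters of ASNS (chr7:97872359-97872658, minus strand) and CHAC1 (chr15:40953221-40953520, plus strand), 2 genes whose footprints were higher in every library of the SMARCB1 line than in any of the GFP line, are shown 5′ to 3′ with the matched letters in capitals.
ASNS: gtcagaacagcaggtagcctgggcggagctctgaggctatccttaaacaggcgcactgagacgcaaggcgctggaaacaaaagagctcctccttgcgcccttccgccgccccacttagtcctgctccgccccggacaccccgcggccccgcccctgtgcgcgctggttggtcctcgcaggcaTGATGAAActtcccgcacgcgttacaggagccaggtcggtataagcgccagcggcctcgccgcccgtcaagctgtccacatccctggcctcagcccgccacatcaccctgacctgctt
CHAC1: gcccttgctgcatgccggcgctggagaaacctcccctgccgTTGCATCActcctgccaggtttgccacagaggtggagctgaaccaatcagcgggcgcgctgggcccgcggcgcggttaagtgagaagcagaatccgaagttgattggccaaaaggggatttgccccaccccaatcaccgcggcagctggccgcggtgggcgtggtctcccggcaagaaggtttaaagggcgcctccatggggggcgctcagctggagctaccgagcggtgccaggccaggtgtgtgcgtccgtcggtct
Counted from the start site, the match began at −68 in ASNS, on the gene's own strand, and at −209 in CHAC1, on the opposite strand. The match describes letters in these windows and does not show that a factor binds there.

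The libraries held 5924443 to 14000039 counts on genes, with a median of 9170558. SMARCB1 itself was counted 2553 and 1750 times with Dox in its own line and 0 times in the remaining 6 libraries, where a count of 0 allows up to 0.506 CPM. Vimentin (VIM) and the keratins KRT8 and KRT18, which rhabdoid cells express together, were present in every library at 781 CPM or more. VIM was higher in the SMARCB1 line, at 2497 to 3170 CPM against 1057 to 1703 CPM, and KRT8 was lower, at 1266 to 1882 CPM against 2107 to 2502 CPM. The part of this contrast in the differences between the lines was not tested. The first GFP Dox library stood apart: 56.4% of its alignment entries had several alignments, against 25.6% to 39.7% in the other 7 libraries. It also held the lowest CPM of 18 of the 34 tested members, against 35.1% of all genes with 80 or more counts. Where leaving it out clearly moved a value under Dox, both values are given for several members. Leaving it out also changed some calls between other groups, VLDLR for Dox in the SMARCB1 line among them.

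The members spanned a wide range of ribosome density. Per kilobase of coding sequence, NUPR1, a small stress-induced chromatin cofactor, had the highest mean level over the 8 libraries at 842 CPM per kilobase. The serine synthesis enzyme PSAT1 followed at 311, the mitochondrial folate enzyme MTHFD2 at 286, ATF4 at 217 and PHGDH, the entry enzyme of serine synthesis, at 196. DDIT3 was at 18.2 and TRIB3, a pseudokinase of the same feedback circuit, at 21.3. At the low end, the lipoprotein receptor VLDLR reached 3.18 and the mitochondrial folate dehydrogenase ALDH1L2 3.15. CBS, the cystathionine synthesis enzyme, had 8 counts in all libraries together and failed the filter on low counts, so 34 members were tested. Of the 30-base windows of its coding exons, 96.8% match the genome at another place too, and such reads have no unique alignment. The same share was 59.2% for ATF4, 47.8% for XPOT, 34.2% for PSAT1, 33.0% for PSPH, 29.5% for MTHFD2, 23.2% for SLC7A5 and 21.0% for ASNS, so the levels of these members leave out reads. It was 4.46% or less for the other 27 members.

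**Figure D1:**
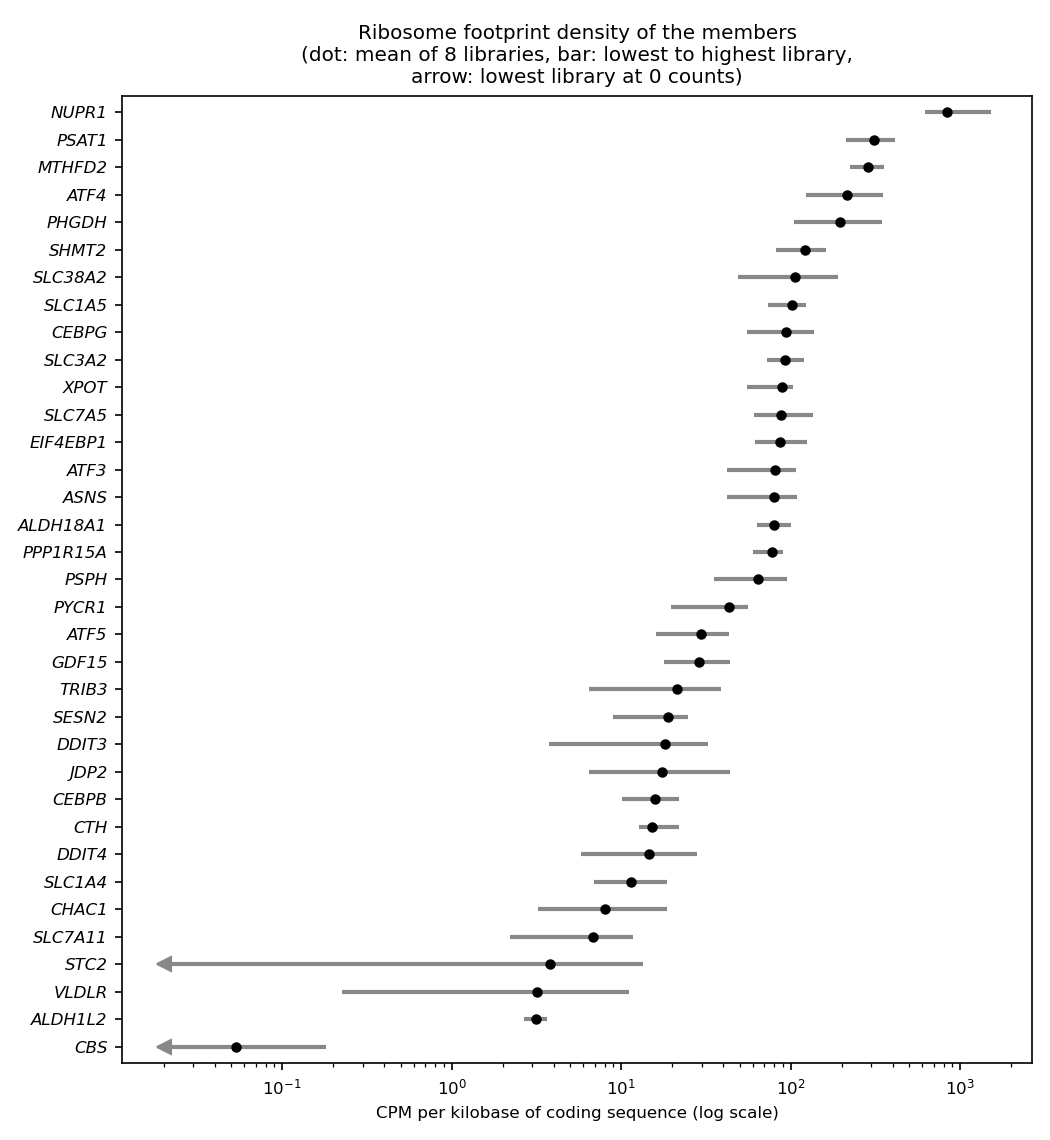
Ribosome footprint density of the 35 members in CPM per kilobase of coding sequence on a log axis, ordered by the mean of 8 libraries (dot), with a bar from the lowest to the highest library and an arrow where the lowest library has 0 counts. NUPR1 leads at 842 and CBS is last at 0.0535, and the longest bars belong to STC2 and VLDLR.

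Re-expression of SMARCB1 for 12 h was compared with DMSO in the same line, to ask which members respond to it. None of the 34 tested members was called (edgeR quasi-likelihood test, adjusted p below 0.05 by Benjamini-Hochberg over 11097 genes), where 0.018% of all genes were called. The 2 genes called in that comparison are thus outside the list. At an unadjusted p below 0.05 there were 5 members, VLDLR, JDP2, NUPR1, ATF4 and STC2, where 4.97% of all genes lay below it. With DESeq2's Wald test 1 member, VLDLR, was called, where 36 of all 11097 genes were called. The median log2 fold change of the members was 0.08, beside −0.02 over all genes tested, and 21 members were higher. For 21 of the 34 members the 95% interval lay within a 2-fold change in either direction, so larger shifts of these were outside the interval, while for the other 13, ATF4 and DDIT3 among them, a 2-fold change was not outside it.

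Dox in the GFP line gave the background of the treatment itself. No member was called there by edgeR, nor by DESeq2, and 0% of all genes were called by edgeR. No member lay at an unadjusted p below 0.05, against 2.16% of all genes. The median log2 fold change was 0.07, beside 0.02 over all genes. For 22 members the 95% interval lay within a 2-fold change. A term for how far the Dox effect of the SMARCB1 line departs from that of the GFP line called no member with either tool, and 0% of all genes with edgeR. No member lay at an unadjusted p below 0.05, against 3.99% of all genes, and only 9 of 34 intervals excluded a 2-fold difference.

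**Figure D2:**
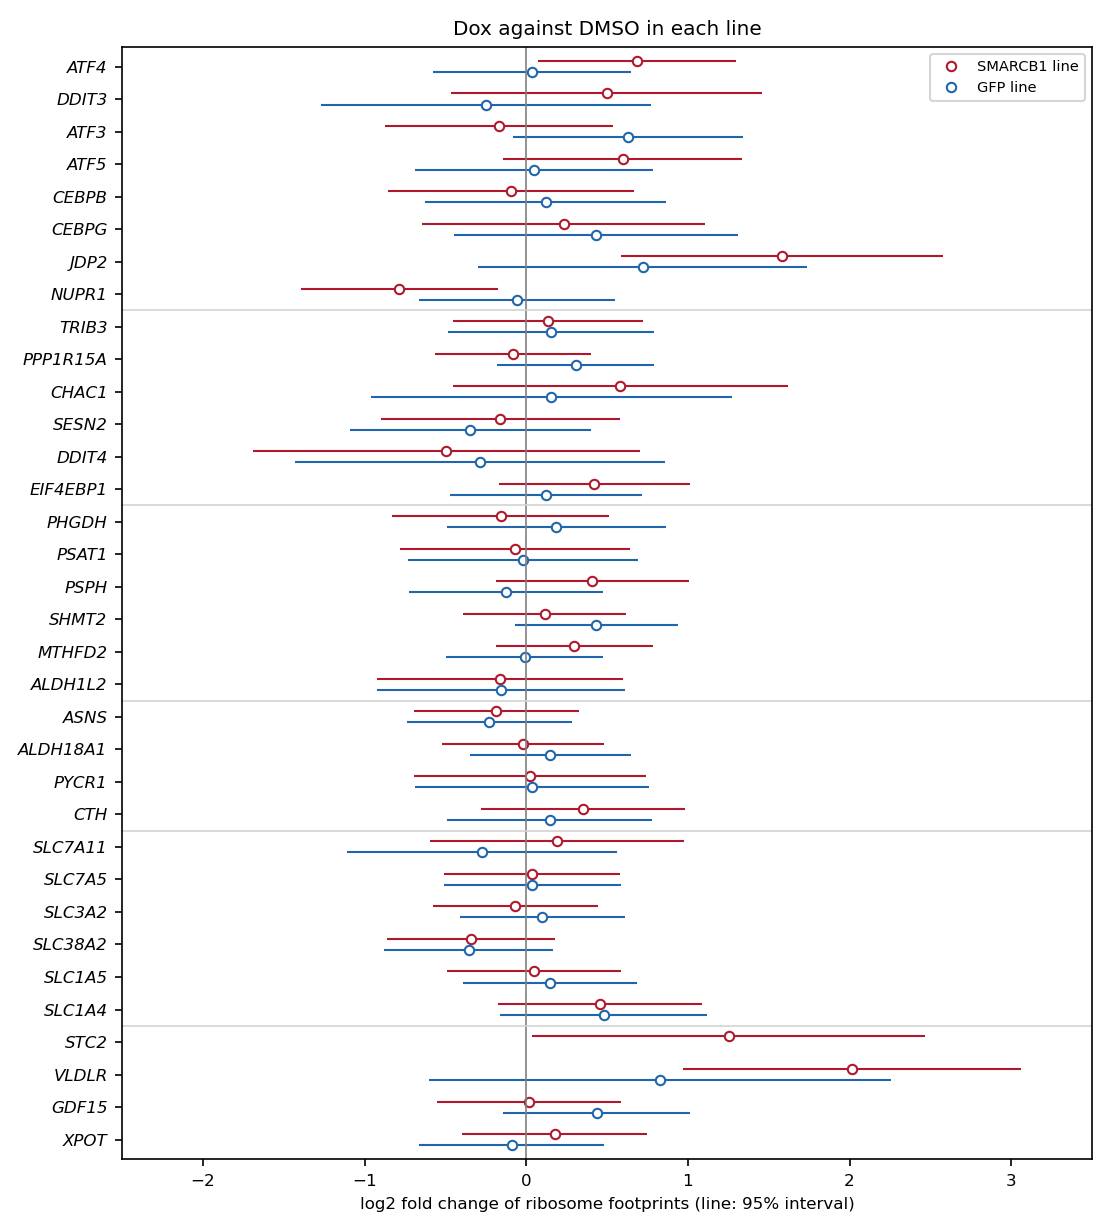
Log2 fold changes of Dox against DMSO in the SMARCB1 line (red) and the GFP line (blue) for the 34 tested members, in order of their roles, with 95% intervals of the edgeR fit. All points are open because no adjusted p fell below 0.05; VLDLR (2.01) and JDP2 (1.58) lie farthest to the right and NUPR1 (−0.79) farthest to the left in the SMARCB1 line, and STC2 has no point in the GFP line, where it had 2 counts in all.

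The lines themselves differed in part of the list, with or without Dox. Under DMSO, 5 members were higher in the SMARCB1 line and none was lower: TRIB3, STC2, VLDLR, SLC38A2 and GDF15. This is 5 of 34, where 5.29% of all genes were called in either direction, 2.67% as higher and 2.62% as lower. Under Dox, 5 members were higher and none was lower: TRIB3, STC2, VLDLR, SLC38A2 and the cystine transporter SLC7A11, where 6.55% of all genes were called, 3.31% as higher and 3.24% as lower. All of these calls exceeded a 2-fold change, where 4.97% of all genes were called past 2-fold under DMSO and 6.08% under Dox. At an unadjusted p below 0.05 there were 13 of 34 members under DMSO, beside 13.9% of all genes, and 14 under Dox, beside 18.7%, all of them higher in the SMARCB1 line. The number of members called changed with the library left out. The log2 difference of TRIB3 then ran from 1.88 to 2.34 under DMSO and from 1.90 to 2.27 under Dox. DESeq2 called 7 members under DMSO, PHGDH and ATF3 besides the 5, where it called 743 of 11097 genes, and 6 under Dox, DDIT3 besides the 5, where it called 971. The comparisons under DMSO and under Dox share no library. They shared 4 members, 4 of the 5 called under DMSO and 4 of the 5 called under Dox. Over all genes 440 calls were shared in the same direction, of 587 under DMSO and 727 under Dox. The log2 fold change had the same sign in both for 31 of the 34 tested members (91.2%), beside 65.0% of all genes. Under DMSO 28 of 34 members were higher in the SMARCB1 line, beside 51.5% of all genes, and the median was 0.38, beside 0.02. Under Dox 29 of 34 were higher, beside 49.1%, and the median was 0.39, beside −0.01. STC2 and VLDLR had few counts in the GFP line and passed the filter through the SMARCB1 line, so their share in these counts was fixed by the filter.

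For 14 of the 34 tested members (41.2%), all 4 libraries of the SMARCB1 line lay above all 4 of the GFP line in CPM, where 8.84% of all genes did. None lay wholly below, where 8.03% of all genes did. Among genes with 10 or more counts in every library, which leaves out STC2, VLDLR and CBS, it was 12 of 32 members (37.5%), beside 7.78% of genes. The 14 were ASNS, PHGDH, TRIB3, SLC7A5, STC2, SLC1A4, CHAC1, GDF15, SLC38A2, VLDLR, SLC7A11, SLC3A2, DDIT3 and SHMT2. Of those found in the promoter table, 3 of 12 held the TGATGNAA core, beside 1 of 16 of the other members. ATF4 was not among the 14.

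**Figure D3:**
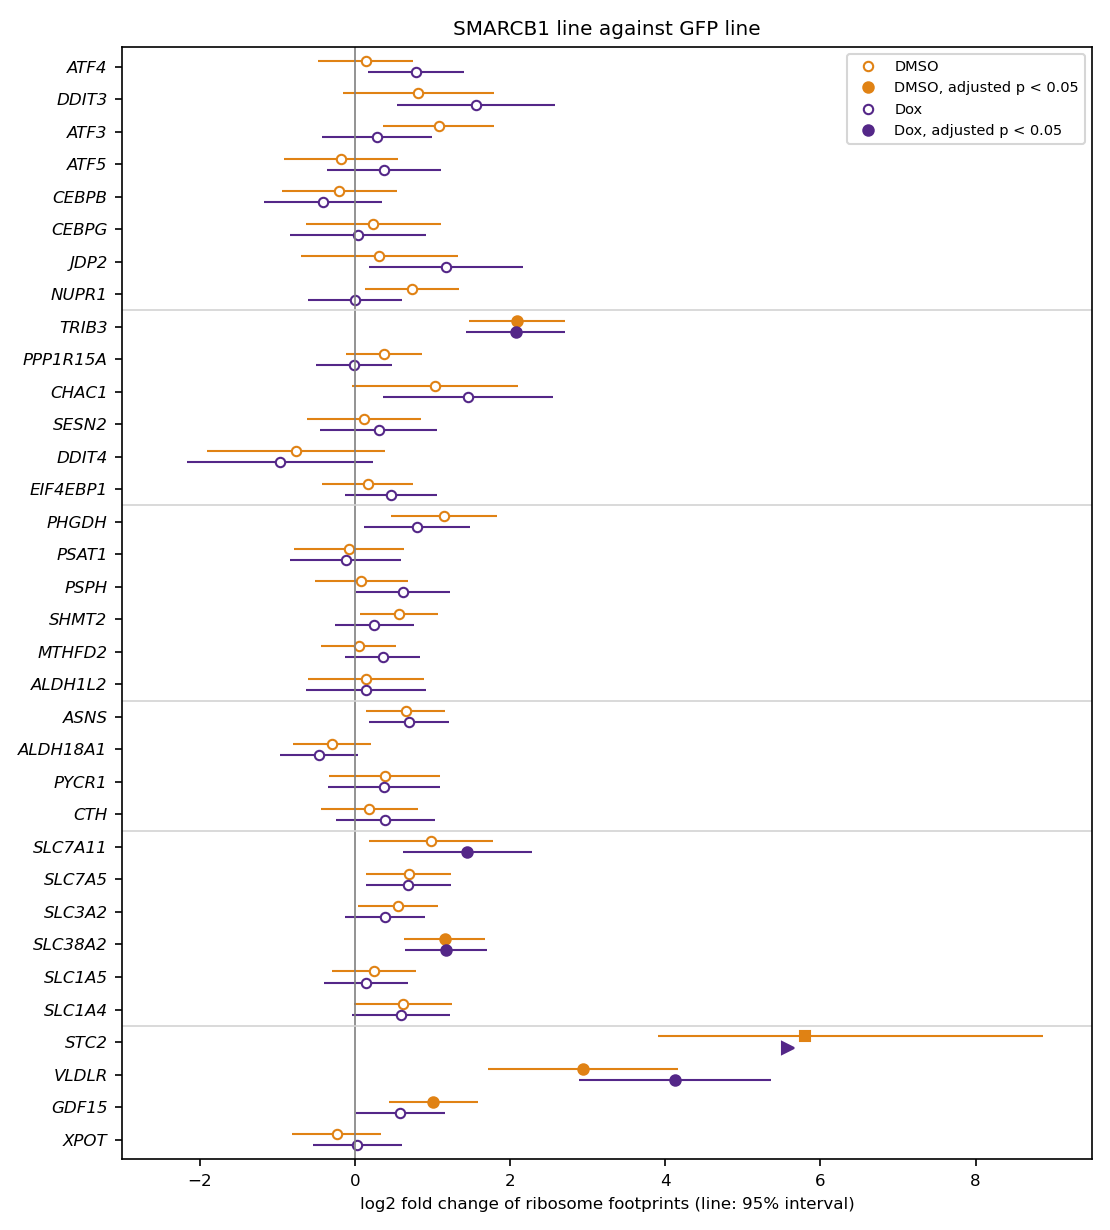
Log2 fold changes of the SMARCB1 line against the GFP line under DMSO (orange) and under Dox (purple) for the 34 tested members, in order of their roles, with 95% intervals; filled points have an adjusted p below 0.05. TRIB3 and SLC38A2 are filled under both treatments at almost the same distance from 0. For STC2 the square is the ratio of summed CPM with its counting interval and the arrow a lower bound, and both comparisons passed the threshold.

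Among the transcription factors, ATF4 itself moved with Dox only at an unadjusted p. It had 329 and 395 CPM in SMARCB1 Dox, 272 and 151 in SMARCB1 DMSO, 139 and 254 in GFP Dox, and 191 and 207 in GFP DMSO. The SMARCB1 Dox libraries were the highest of the 8, but the other 3 groups overlapped, and replicates were far apart in SMARCB1 DMSO and in GFP Dox (CPM ratio of replicate 2 to 1 of 0.554 and 1.83). The log2 fold change of Dox in the SMARCB1 line was 0.68 ± 0.29 (SE; adjusted p = 0.925), against 0.04 ± 0.29 in the GFP line, and the difference between these effects was 0.65 ± 0.40 (adjusted p = 0.981). Between the lines ATF4 differed by 0.14 ± 0.28 under DMSO (adjusted p = 0.912) and 0.78 ± 0.29 under Dox (adjusted p = 0.139). Without the first GFP Dox library the value under Dox was 0.51 and the difference between the effects 0.38. Without the second GFP Dox library the value under Dox was 1.12 and passed the threshold (adjusted p = 0.0246), as it did without a filter on low counts (adjusted p = 0.0433). DDIT3, the transcription factor that ATF4 raises on the way to cell death, had 16.6 and 18.6 CPM in SMARCB1 Dox and 14.0 and 9.42 in SMARCB1 DMSO. In the GFP line it had 2.16 and 9.18 CPM with Dox and 7.58 and 6.14 with DMSO. The lines did not overlap, yet the GFP Dox libraries differed by 4.24-fold from each other, the lower value resting on 15 counts. DDIT3 was 1.57 ± 0.47 higher under Dox on the log2 scale (adjusted p = 0.0687) and 0.82 ± 0.46 under DMSO (adjusted p = 0.491), neither past the threshold of edgeR. Under Dox it was called with DESeq2 (adjusted p = 0.0198) and by edgeR without a filter on low counts (adjusted p = 0.00341). The other scalings, the stricter filter and the other fits did not call it (adjusted p up to 0.171). Without the first GFP Dox library the value under Dox was 0.94, and without the second it was 2.75 (adjusted p = 0.00169).

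ATF3, a stress-induced partner of the ATF and JUN families, had 66.9 and 55.4 CPM in SMARCB1 Dox, 64.6 and 63.0 in SMARCB1 DMSO, 58.0 and 31.1 in GFP Dox, and 37.1 and 26.2 in GFP DMSO. Only the first GFP Dox library reached into the range of the SMARCB1 line. The log2 difference between the lines was 1.08 ± 0.33 under DMSO (adjusted p = 0.0885) and 0.28 ± 0.33 under Dox (adjusted p = 0.708). Under DMSO it passed the threshold with DESeq2 (adjusted p = 0.0442) and without a filter on low counts (adjusted p = 0.00543). It also passed with only the groups compared (adjusted p = 0.0132) and with the replicate block (adjusted p = 0.0204). It missed the threshold with the size factors of DESeq2 (adjusted p = 0.0962) and with library size only (adjusted p = 0.0958). The stricter filter missed it too (adjusted p = 0.121). When single libraries were left out, the difference under DMSO ran from 0.84 to 1.36, and it passed for some libraries and missed for others. Under Dox it was 0.98 without the first GFP Dox library. With Dox in the GFP line ATF3 stood at 0.63 ± 0.33 (adjusted p = 1), and without the first GFP Dox library at −0.07. JDP2, a repressor that binds the same DNA sites as JUN and ATF3, had 23.1 and 13.8 CPM in SMARCB1 Dox, above 3.54 and 7.44 in SMARCB1 DMSO, 6.78 and 8.24 in GFP Dox and 6.33 and 3.36 in GFP DMSO. Its Dox libraries of the SMARCB1 line lay above the other 6, with a log2 fold change of 1.58 ± 0.46 (adjusted p = 0.463). Without a filter on low counts the adjusted p was 0.0457. In the GFP line the change of JDP2 was 0.72 ± 0.47, and the difference of the effects was 0.86 ± 0.66 (adjusted p = 0.981). NUPR1 had 251 and 223 CPM in SMARCB1 Dox, 269 and 480 in SMARCB1 DMSO, 197 and 235 in GFP Dox, and 226 and 252 in GFP DMSO. Its high value in 1 SMARCB1 DMSO library stood alone, and the Dox change of −0.79 ± 0.28 (adjusted p = 0.765) was −0.23 at the smallest when single libraries were left out. The remaining factors, ATF5, CEBPB and CEBPG, had log2 differences between −0.41 and 0.60 in the 4 comparisons of groups, none past the threshold.

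**Figure D4:**
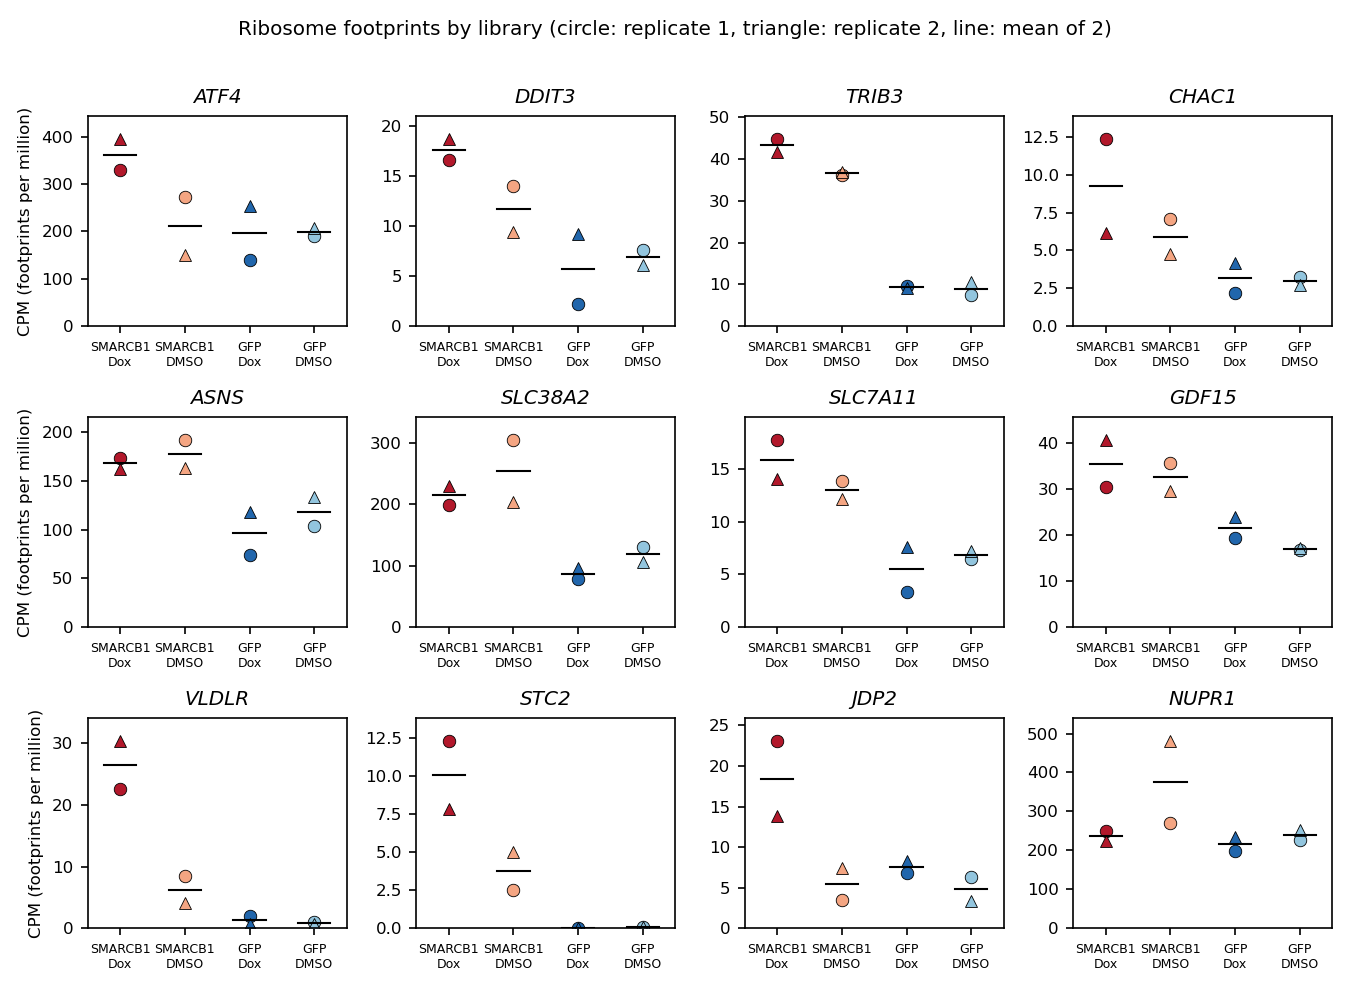
CPM in each of the 8 libraries for 12 members on linear axes from 0 (circle, replicate 1; triangle, replicate 2; line, mean of 2). TRIB3, SLC38A2, SLC7A11, VLDLR and STC2 separate the SMARCB1 line from the GFP line, whereas ATF4 and NUPR1 each have a group whose 2 libraries lie far apart.

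TRIB3, the pseudokinase that ATF4 and DDIT3 raise and that in turn holds ATF4 activity down, differed between the lines with little spread between replicates. It had 44.8 and 41.8 CPM in SMARCB1 Dox and 36.1 and 37.0 in SMARCB1 DMSO, against 9.66 and 9.02 in GFP Dox and 7.50 and 10.5 in GFP DMSO. Replicates were close and the lines far apart, by 2.09 ± 0.29 on the log2 scale under DMSO (adjusted p = 0.000299) and 2.07 ± 0.30 under Dox (adjusted p = 0.000419), or 4.26-fold and 4.20-fold. Dox moved TRIB3 by 0.13 ± 0.28 in the SMARCB1 line and by 0.15 ± 0.30 in the GFP line (adjusted p = 1 in each). The call between the lines was retained under every alternative tried, with an adjusted p of at most 0.0136 when single libraries were left out. CHAC1, which degrades glutathione, had 12.4 and 6.16 CPM in SMARCB1 Dox, 7.09 and 4.74 in SMARCB1 DMSO, 2.16 and 4.20 in GFP Dox, and 3.25 and 2.71 in GFP DMSO. The lines did not overlap, but neither comparison of the lines passed the threshold, with 1.03 ± 0.50 under DMSO (adjusted p = 0.391) and 1.46 ± 0.51 under Dox (adjusted p = 0.122). Under Dox it was 1.17 without the first GFP Dox library. SESN2, a stress-induced inhibitor of mTORC1 signaling, had 29.3 and 28.6 CPM in SMARCB1 Dox, 23.6 and 35.5 in SMARCB1 DMSO, 13.0 and 31.3 in GFP Dox, and 24.2 and 33.8 in GFP DMSO. All 4 groups of SESN2 overlapped, with the first GFP Dox library lowest, and its log2 differences in the 4 comparisons of groups lay between −0.35 and 0.30. Under Dox the difference between the lines was −0.11 without that library. Of the other effectors, PPP1R15A (GADD34, which recruits the phosphatase that reverses eIF2 phosphorylation), the translation repressor EIF4EBP1 and the mTORC1 inhibitor DDIT4 were not called in any comparison. DDIT4 was the member with the lowest log2 difference between the lines, −0.75 ± 0.54 under DMSO and −0.96 ± 0.56 under Dox, and its GFP Dox libraries differed by 4.81-fold.

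The serine and folate enzymes PSAT1, MTHFD2, PHGDH and SHMT2 were 4 of the 6 members with the highest density, and none of this role was called by edgeR in the reported fit. PHGDH, the first enzyme of the route, had 402 and 511 CPM in SMARCB1 Dox and 318 and 615 in SMARCB1 DMSO, above 222 and 257 in GFP Dox and 187 and 262 in GFP DMSO. The lines did not overlap, although the SMARCB1 DMSO libraries differed by 1.94-fold, and the log2 difference was 1.15 ± 0.32 under DMSO (adjusted p = 0.0531) and 0.80 ± 0.32 under Dox (adjusted p = 0.177). Under DMSO it passed the threshold with DESeq2 (adjusted p = 0.00910) and without a filter on low counts (adjusted p = 0.00106). It also passed with only the groups compared (adjusted p = 0.0283) and with the replicate block (adjusted p = 0.0181). The size factors of DESeq2, library size only and the stricter filter did not call it. When single libraries were left out, it passed for some libraries and missed for others. The next enzymes of the same route, PSAT1 and PSPH, differed between the lines by −0.07 ± 0.33 and 0.08 ± 0.28 under DMSO (adjusted p = 0.964 and 0.949). Under Dox their differences were −0.12 ± 0.33 and 0.62 ± 0.28 (adjusted p = 0.885 and 0.255). SHMT2, the mitochondrial enzyme that turns serine into glycine, had 216 and 249 CPM in SMARCB1 Dox, 184 and 212 in SMARCB1 DMSO, 174 and 181 in GFP Dox, and 126 and 155 in GFP DMSO. The lines were apart by a narrow margin, with 0.57 ± 0.24 under DMSO (adjusted p = 0.267) and 0.25 ± 0.24 under Dox (adjusted p = 0.626). MTHFD2 and ALDH1L2, which carry the folate pathway onward in mitochondria, had log2 differences between −0.16 and 0.35 in the 4 comparisons of groups.

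Of the enzymes for asparagine, proline and cysteine, asparagine synthetase (ASNS) separated the lines. It had 173 and 162 CPM in SMARCB1 Dox and 191 and 163 in SMARCB1 DMSO, and 74.0 and 118 in GFP Dox and 103 and 133 in GFP DMSO. The lowest library of the SMARCB1 line, at 162 CPM, was above the highest of the GFP line, at 133 CPM. The log2 difference between the lines was 0.65 ± 0.24 under DMSO (adjusted p = 0.177) and 0.70 ± 0.24 under Dox (adjusted p = 0.115), neither past the threshold. Under Dox it was 0.51 without the first GFP Dox library and 0.92 without the second (adjusted p = 0.0329). Dox moved ASNS by −0.18 ± 0.24 in the SMARCB1 line and by −0.23 ± 0.24 in the GFP line (adjusted p = 1 in each), and both intervals lay within a 2-fold change. The proline enzyme ALDH18A1 had log2 differences between the lines of −0.30 and −0.46, its partner PYCR1 of 0.38 and 0.37, and the cysteine enzyme CTH of 0.19 and 0.39, under DMSO and Dox, none past the threshold.

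Of the amino acid transporters, 5 of 6 had all libraries of the SMARCB1 line above those of the GFP line, beside 8.84% of all genes, and all 6 were higher in the SMARCB1 line under each treatment, beside 51.5% of all genes under DMSO and 49.1% under Dox. SLC38A2 (SNAT2), the carrier of small neutral amino acids that starvation raises, had 199 and 230 CPM in SMARCB1 Dox and 304.5 and 204 in SMARCB1 DMSO, against 78.3 and 96.4 in GFP Dox and 131 and 106.5 in GFP DMSO. The lines were well apart, and SLC38A2 was 2.23-fold higher in the SMARCB1 line under DMSO (log2 1.16 ± 0.25, adjusted p = 0.00950) and 2.25-fold higher under Dox (1.17 ± 0.25, adjusted p = 0.00905). The call under DMSO was lost without the first SMARCB1 DMSO library (adjusted p = 0.0805) or without either GFP DMSO library (adjusted p = 0.0642 and 0.230), and the call under Dox without the second SMARCB1 Dox library (adjusted p = 0.103). Within each line Dox gave −0.34 ± 0.24 and −0.36 ± 0.24 (adjusted p = 1 in each). SLC7A11 (xCT), which imports cystine, had 17.7 and 14.0 CPM in SMARCB1 Dox, 13.8 and 12.1 in SMARCB1 DMSO, 3.32 and 7.62 in GFP Dox, and 6.50 and 7.21 in GFP DMSO. The lines did not overlap, and SLC7A11 was higher in the SMARCB1 line under Dox by 1.45 ± 0.39 (adjusted p = 0.0386), while under DMSO the difference was 0.98 ± 0.37 (adjusted p = 0.197). The difference between these values was 0.46 ± 0.53 (adjusted p = 0.981). The call under Dox was retained without the second GFP Dox library and lost without any 1 of the other 7, with 1.07 (adjusted p = 0.180) without the first GFP Dox library. SLC3A2, the shared heavy chain that brings SLC7A11 and SLC7A5 to the membrane, and SLC7A5, which takes up large neutral amino acids, differed by 0.55 ± 0.24 and 0.69 ± 0.25 under DMSO (adjusted p = 0.296 and 0.180) and by 0.38 ± 0.24 and 0.69 ± 0.26 under Dox (adjusted p = 0.425 and 0.146). SLC1A4, a carrier of alanine, serine and cysteine, had 29.8 and 23.5 CPM in SMARCB1 Dox, 18.2 and 17.9 in SMARCB1 DMSO, 16.6 and 15.6 in GFP Dox, and 11.1 and 13.6 in GFP DMSO. Its lines were narrowly apart (0.62 ± 0.30 and 0.59 ± 0.30, adjusted p = 0.384 and 0.305), and Dox gave 0.46 ± 0.29 in the SMARCB1 line against 0.48 ± 0.30 in the GFP line. The glutamine carrier SLC1A5 was the 1 transporter whose lines overlapped.

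Among the members, the widest differences between the lines lay in STC2 and VLDLR. STC2, a secreted glycoprotein that stress raises, had 140 and 47 counts in SMARCB1 Dox and 15 and 69 in SMARCB1 DMSO, and 0 and 0 in GFP Dox and 1 and 1 in GFP DMSO. In CPM this was 12.3 and 7.83 with Dox and 2.53 and 5.04 with DMSO in the SMARCB1 line. STC2 was all but absent from the GFP line. Under DMSO the ratio of the lines in CPM was 55.6 (exact 95% interval 14.9 to 467, counting error only; adjusted p = 0.00117), and under Dox the SMARCB1 line was at least 47.8-fold higher (against 3 counts over the GFP Dox group; adjusted p = 0.000298). Both calls were retained under every alternative that kept the gene in the test. STC2 passed the filter on low counts through the SMARCB1 line, so a call could hardly go the other way. Its persistence is therefore no separate evidence, and the stricter filter removed it. Within the SMARCB1 line Dox gave a log2 fold change of 1.25 ± 0.56 (adjusted p = 0.998). VLDLR, a receptor for lipoproteins and reelin that ATF4 raises in stressed cells, had 22.5 and 30.3 CPM in SMARCB1 Dox and 8.44 and 4.09 in SMARCB1 DMSO. In the GFP line it had 2.02 and 0.622 CPM with Dox and 1.00 and 0.643 with DMSO, from 4 to 14 counts a library. VLDLR was thus ordered by group, with both Dox libraries of the SMARCB1 line on top and the whole GFP line at the bottom. It was higher in the SMARCB1 line by 2.94 ± 0.57 under DMSO (adjusted p = 0.00535) and 4.13 ± 0.58 under Dox (adjusted p = 0.000334). The call under DMSO was lost without the first SMARCB1 DMSO library (adjusted p = 0.0574) or without the second GFP DMSO library (adjusted p = 0.0884), and the call under Dox was retained under every alternative that kept the gene in the test, at 5.38 without the first GFP Dox library and 3.43 without the second. With Dox in the SMARCB1 line VLDLR had a log2 fold change of 2.01 ± 0.49 (adjusted p = 0.336), the smallest p of the members in that comparison. Its adjusted p was 0.0283 with DESeq2 and 0.00254 without a filter on low counts. With other size factors, only the groups compared or the replicate block it missed the threshold, with an adjusted p of 0.0994 to 0.324. When single libraries were left out, the log2 fold change ran from 1.59 to 2.52. It was 2.03 without the first or the second GFP Dox library, where VLDLR was called although the libraries compared were the same. The Dox effect on VLDLR in the GFP line was 0.83 ± 0.67, and the difference between the effects, 1.19 ± 0.83, did not pass the threshold (adjusted p = 0.981). That difference was 2.45 without the first GFP Dox library and 0.50 without the second. GDF15, a secreted stress cytokine, had 30.4 and 40.6 CPM in SMARCB1 Dox, 35.6 and 29.6 in SMARCB1 DMSO, 19.3 and 24.0 in GFP Dox, and 16.7 and 17.2 in GFP DMSO. The lines did not overlap, and GDF15 was higher in the SMARCB1 line under DMSO by 1.01 ± 0.27 (adjusted p = 0.0418) and differed by 0.59 ± 0.27 under Dox (adjusted p = 0.259), and the difference between these values was −0.42 ± 0.38 (adjusted p = 0.981). The call under DMSO was lost when any 1 of the 6 libraries other than GFP Dox was left out. The tRNA exporter XPOT differed by −0.24 ± 0.27 under DMSO and 0.03 ± 0.27 under Dox.

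Related gene lists were counted in the same fit. Of 24 genes of the eIF2 machinery (the 4 eIF2 kinases, the subunits of eIF2 and of its exchange factor eIF2B, and phosphatase subunits), none was called in any of the 5 comparisons. Over all genes 5.29% were called between the lines under DMSO and 6.55% under Dox, so no call in a list of this size is near that share. The median log2 difference of these 24 genes between the lines was −0.05 under DMSO and 0.03 under Dox, with 12 and 14 higher in the SMARCB1 line. Of 26 genes of the ATF6 and XBP1 branches of the unfolded protein response, chaperones and disulfide isomerases among them, none was called either. Their medians between the lines were 0.23 under DMSO and 0.10 under Dox. Of these 26 genes, 20 were higher in the SMARCB1 line under DMSO and 17 under Dox, beside 51.5% and 49.1% of all genes. Of 38 further genes linked to ATF4, transfer RNA synthetases and amino acid transporters among them, 34 were tested. The stress-induced gene NIBAN1 was higher in the SMARCB1 line under DMSO (1.37 ± 0.27, adjusted p = 0.00544) and under Dox (1.53 ± 0.28, adjusted p = 0.00271). The neutral amino acid transporters SLC43A1 and SLC38A1 were higher under Dox (1.98 ± 0.47 and 1.06 ± 0.25, adjusted p = 0.0189 and 0.0190), and no gene of this list was called as lower. This is 1 of 34 under DMSO, beside 2.67% of all genes called as higher, and 3 of 34 under Dox, beside 3.31%. The list's median was 0.17 under DMSO and 0.15 under Dox, and 22 of 34 genes were higher in the SMARCB1 line under each. No gene of these lists was called for Dox in either line.

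Among the lists counted that are not of ATF4-linked genes, the called genes were NQO1 and GLUL. Of 15 tested NRF2 targets, the detoxifying reductase NQO1 was higher in the SMARCB1 line under DMSO (1.19 ± 0.26, adjusted p = 0.0135) and under Dox (0.94 ± 0.26, adjusted p = 0.0477), and the medians of that list were −0.04 and 0.11. Of 14 tested serine, glycine, folate and proline enzymes outside the members, glutamine synthetase (GLUL) was lower in the SMARCB1 line under both treatments (adjusted p = 0.000133 under DMSO and 0.000870 under Dox). It had 7 and 1 counts in SMARCB1 Dox and 0 and 2 in SMARCB1 DMSO, and 40 and 83 in GFP Dox and 99 and 204 in GFP DMSO. GLUL had few counts in the SMARCB1 line and passed the filter through the GFP line, where it is high. The NRF2 list and the enzyme list thus held 1 called gene each, beside 5.29% of all genes called under DMSO and 6.55% under Dox. The median of the enzyme list was −0.01 under DMSO and −0.35 under Dox. Of its 14 tested genes, 6 were higher in the SMARCB1 line under DMSO and 4 under Dox.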

How the data were processed

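The authors prepared ribosome-protected fragments of G401 cells with the RiboLace kit, aligned them with STAR (build hg38 per the labels) and used HTSeq (intersection-strict mode) to count them per gene on the coding sequence annotated in GENCODE 42. The deposited values are these raw counts for 8 libraries, and the strand setting is not given in the sources used here. RNA-seq was not analysed here. The 5 HTSeq rows of reads without a gene were left out. Per library, 52.8% to 61.8% of reads with a unique alignment lay on genes. Symbols and coding lengths come from GENCODE 44 by gene ID, and promoters from the RefSeq table.

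Counts were filtered with filterByExpr by group, scaled by TMM and tested with the quasi-likelihood test over all 8 libraries, 1 term per group (R 4.3.3, edgeR 4.0.16, limma 3.58.1), with Benjamini-Hochberg adjustment over 11097 genes and calls at an adjusted p below 0.05. An error after ± is the standard error from the F statistic, and n is 2 libraries per group. CPM is unscaled by TMM. Alternatives were DESeq2 (1.42.0) or its size factors, library size only, other filters, only the groups compared, a replicate block, and leaving out each library. Replicate libraries differed by more than sampling noise (chi-square per degree of freedom 14.5 to 45.5). Since nothing says that they are separate cultures, p-values measure the spread between these libraries, which may be technical. Without molecular identifiers, intervals and floors (3 counts) cover counting error only. Window matches were counted with Python 3.

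Values in every library are given for ATF4, DDIT3, ATF3, ASNS, TRIB3, CHAC1 and SESN2, for members called in any comparison and for the 5 members with the smallest p in each. In the other lists, up to 4 called genes per list were named by smallest p. Other members, PHGDH with its library values among them, were named after their values were seen. The members and lists were chosen with earlier results of these data known.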

Additional observations from a re-analysis of the deposited data

How the results depend on the processing

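Dox against DMSO called no member in the GFP line, and the test of the difference between the lines' Dox effects called none, under every alternative run. In the SMARCB1 line Dox called 1 member with DESeq2 (36 of 11097 genes), 2 without a filter beyond 1 count (46 of 14323 genes), and 0 to 1 when single libraries were left out (1 without the first or the second GFP Dox library, where 22 genes were called). With at least 10 counts in every library, which removes STC2 and VLDLR by construction, 32 members were tested. Between the lines, 2 of them (TRIB3 and SLC38A2) were called under DMSO and 2 under Dox. The share of all genes called at this filter is not given here. In the reported fit it was 5.29% under DMSO and 6.55% under Dox. Leaving out single libraries gave 2 to 7 members under DMSO, with 2 without the second GFP DMSO library and 3 without the first, and 3 to 10 under Dox, with 3 without the second SMARCB1 Dox library and 10 without the second GFP Dox library, where 1661 of 11597 genes were called. No filter beyond 1 count gave 8 under Dox. The causes were not tested.

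Some members turned direction when single libraries were left out. For Dox in the SMARCB1 line the log2 fold change of CHAC1 ran from −0.0302 to 0.98 and that of SESN2 from −0.46 to 0.24, and for Dox in the GFP line that of ATF3 from −0.0698 to 1.10. Between the lines under DMSO, ATF4 ran from −0.28 to 0.46 and SESN2 from −0.29 to 0.42. Under Dox, ATF3 ran from −0.18 to 0.98 and SESN2 from −0.11 to 0.89. None of these was called by the reported fit.

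The replicate numbers were not taken to pair the libraries, since the correlation of deviations was 0.0563 between SMARCB1 DMSO and GFP Dox and 0.215 to 0.382 for the other 5 pairs of groups. With the replicate block, 0 members were called for Dox in either line and for the difference, 7 between the lines under DMSO (PHGDH and ATF3 besides the 5; 753 of 11097 genes, against 587 in the reported fit) and 5 under Dox (922 genes, against 727). Scaling by library size only moved the median of all genes from −0.02 to 0.09 for Dox in the SMARCB1 line, from −0.03 to 0.16 for the difference and from −0.01 to 0.11 between the lines under Dox, and GDF15 under DMSO and SLC7A11 under Dox then missed the threshold (adjusted p = 0.103 and 0.0532). The fit of only the groups compared could not be made for the difference. At 2 libraries a group, a 2-fold difference of the Dox effects lay within the interval for 25 of 34 members. STC2 and VLDLR had 0 to 14 counts a library in the GFP line, which limits their values there.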
